A study of Drosophila melanogaster with 10 samples.

Results

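The effect of COX7a knockdown on gene expression was examined in larval eye-antenna discs of Drosophila melanogaster that also overexpressed the Notch ligand Delta. The comparison used 4 of the 10 arrays of the series, 2 of discs with Delta and COX7a RNAi and 2 of discs with Delta alone, picked by their titles. Discs with Delta and COX7a RNAi carried ey-Gal4, UAS-Delta and UAS-COX7a-RNAi (v106661). Discs with Delta carried ey-Gal4, UAS-Delta and UAS-GFP, so that both groups had the same driver, the same UAS-Delta and 1 further UAS transgene. Discs with COX7a RNAi alone (ey-Gal4/UAS-COX7a-RNAi (v106661), 2 arrays) and discs with GFP (ey-Gal4/UAS-GFP, 2 arrays) gave the effect of the same hairpin without Delta. The remaining genotype, with an activated Notch fragment, Notch[intra2] (2 arrays), entered the estimate of the spread, and its levels are given only where stated. Larvae were at 96 h after egg laying, and 20 to 30 discs were pooled per array. The ey-Gal4 driver uses an enhancer of eyeless, so its activity covers some cells of the dissected tissue and not others, and 1 hairpin line was used, so an effect outside its target cannot be told apart from one of COX7a.

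COX7a is a small nuclear-encoded subunit of complex IV, the cytochrome c oxidase, which passes electrons from cytochrome c to oxygen and pumps protons across the inner mitochondrial membrane. Delta is a membrane-bound ligand that activates the receptor Notch on neighbouring cells, and the cleaved Notch fragment then switches on target genes such as those of the Enhancer of split complex. In the eye disc Notch activation at the dorsoventral midline promotes growth, and an eye-antenna disc of this age is still mostly proliferating epithelium. Cells with a failing respiratory chain are known to raise glycolysis, stress-responsive transcription factors and mitochondrial chaperones, and damaged discs secrete hormones that slow larval development.

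The values are on the log2 scale, so a difference of 1 is a 2-fold change, and each is the level of 1 probe set per gene. COX7A itself, the target of the hairpin, measured 10.88 and 11.20 in discs with Delta and COX7a RNAi, against 13.21 and 13.29 in discs with Delta. The knockdown arrays were both below the Delta arrays, by 2.21 ± 0.09 (SE of the fit, 2 arrays a group), which is 4.64-fold (adjusted p = 1.37e-05, limma). Without Delta, COX7A measured 10.50 and 10.54 with the hairpin and 13.41 and 13.32 with GFP. The difference between the 2 knockdown effects, 0.63 in the direction of a smaller drop with Delta, missed the threshold (adjusted p = 0.088). The Delta gene, measured by a probe set that reads the endogenous gene and may read the transgene, was at 13.26 and 12.72 in discs with Delta and COX7a RNAi and at 13.06 and 13.22 in discs with Delta, while it lay at 11.10 and 11.23 with the hairpin alone and at 11.20 and 11.16 with GFP. The 2 groups with the transgene overlapped (log2 difference -0.15 ± 0.15, adjusted p = 0.683). Its other probe set differed by -0.13 (adjusted p = 0.452). Some hairpin insertions are known to misexpress the zinc-finger gene tio, a neighbour of tsh. Neither tio (log2 difference -0.45 ± 0.12, adjusted p = 0.0839) nor tsh (-0.10 ± 0.06, adjusted p = 0.454) passed the test.

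Replicates correlated with r = 0.996 in discs with Delta and COX7a RNAi and r = 0.997 in discs with Delta, across 8702 genes. All 9 eye-antenna epithelium markers on the array were above the floor on at least 1 array, and their summed signal on the linear scale was 23949 and 24269 in discs with Delta and COX7a RNAi, against 24557 and 25231 in discs with Delta, slightly lower on both knockdown arrays. Muscle markers summed to 5722 and 5287 in discs with Delta and COX7a RNAi, against 10434 and 5459 in discs with Delta, so Delta replicate 1 stood apart. The 8 muscle genes all had negative differences (median -0.38), none was called, and without Delta replicate 1 the differences of 4 were positive. Tracheal markers (13614 and 12324 in discs with Delta and COX7a RNAi, against 15328 and 14215 in discs with Delta) were lower on both knockdown arrays. The tracheal sum was dominated by the bright genes Gasp, serp and verm (-0.07, -0.36 and -0.44), while btl and Mur89F lay near the floor. The sum of glial markers (11057 and 10493, against 11696 and 11463) was lower too, and was dominated by the bright genes Gli and nrv2 (-0.07 and -0.30). Of the dimmer glial genes repo had a negative difference (-0.23), while moody and loco had positive ones (0.15 and 0.10). Neuron, haemocyte, fat body and ring gland sums overlapped between the groups. Salivary gland markers summed to 337 and 308 in discs with Delta and COX7a RNAi, against 244 and 254 in discs with Delta. That gap was mostly the gene sage, which differed by 0.77. Sgs5, Eig71Ee and Sgs8 differed by 0.18, 0.14 and 0.07 and were not called. In pooled discs, fewer cells of a type and less RNA per cell cannot be told apart. The part of these cell types in the results was not tested.

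In discs with Delta and COX7a RNAi, 326 of 8702 genes tested passed an adjusted p of 0.05, which is 3.75%. Of them 190 rose (2.18%) and 136 fell (1.56%), and 57 changed at least 2-fold, 41 upward and 16 downward. The median difference of all genes tested was -0.01. The same hairpin without Delta called 394 genes (4.53%), 265 higher and 129 lower, or 218 higher and 175 lower where the arrays were centred on their median. Its count was 127 without GFP replicate 1 and 158 without GFP replicate 2. The differences of these 2 comparisons share no array, but the spread of each gene was estimated from all 10 arrays for both. Their lists of calls are therefore not independent. Of the 190 genes that rose in discs with Delta and COX7a RNAi, 115 also rose under the hairpin alone, which is 60.5% of the first list and 43.4% of the second. Of the 136 that fell, 20 also fell under the hairpin alone, 14.7% of the first list and 15.5% of the second. Over all 8702 genes tested, the hairpin alone called 265 higher and 129 lower. By sign alone, called or not, 174 of the 190 rises and 103 of the 136 falls went the same way under the hairpin alone. Across the 8702 genes the 2 knockdown effects correlated with r = 0.449 and rho = 0.295, as a description over genes that are not independent. The count rested on few arrays: it was 104 without Delta replicate 1, 136 without Delta replicate 2, 204 and 203 without GFP replicate 1 or 2, and 217 without either Notch[intra2] array.

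The 15 largest rises included secreted hormone-like proteins, a heat shock protein, kinase-like proteins, transporters and detoxification enzymes. ImpL2, a secreted protein that binds insulin-like peptides and dampens insulin signalling, measured 12.66 and 12.52 in discs with Delta and COX7a RNAi, against 9.19 and 9.11 in discs with Delta. Both knockdown arrays lay more than 3 log2 units above both Delta arrays, and the rise was 3.44 ± 0.12, or 10.9-fold (adjusted p = 7.48e-06). Under the hairpin alone ImpL2 was at 12.56 and 12.65, against 9.69 and 9.78 with GFP, a rise of 2.87. The difference between the 2 rises was 0.57 ± 0.17 and missed the threshold (adjusted p = 0.276). Ilp8, a relaxin-like peptide that damaged or slow-growing discs release to delay metamorphosis, measured 9.29 and 9.16 in discs with Delta and COX7a RNAi, against 6.52 and 6.48 in discs with Delta. The groups were far apart, with a rise of 2.72 ± 0.24, or 6.61-fold (adjusted p = 0.00093), beside a rise of 3.14 under the hairpin alone. Of the 17 genes tested in the insulin and TOR list, ImpL2 and Ilp8 were the 2 that rose and none fell. The median of that list was 0.00. The receptor InR, the kinase Akt and the transcription factor foxo, named after their values were seen, had differences of -0.13, -0.01 and 0.01.

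Hsc70-2, a member of the Hsp70 chaperone family, had the largest measured difference of all genes tested. It measured 7.68 and 7.75 in discs with Delta and COX7a RNAi, against 3.61 and 3.604 in discs with Delta, where both arrays were under the floor of 4.66 below which the dimmest 40% of all values lie. The rise was at least 8.29-fold (adjusted p = 5.51e-05). With the hairpin alone Hsc70-2 was at 6.78 and 7.51, and with GFP at 3.98 and 3.64. It was the only 1 of 9 cytosolic heat shock genes tested that was called, though 8 of the 9 differences were positive (median 0.17). Hsp26 had the next largest difference, 1.41 ± 0.52 (adjusted p = 0.203). It measured 9.89 and 10.08 in discs with Delta and COX7a RNAi, against 8.59 and 8.56 in discs with Delta. JhI-26, a juvenile hormone-inducible gene whose product belongs to the family of ecdysteroid kinase-like proteins, measured 8.95 and 8.17 in discs with Delta and COX7a RNAi, against 5.13 and 4.82 in discs with Delta. The groups were apart by 3.58 ± 0.25, or 11.95-fold (adjusted p = 0.000276). A pair of further members of the family rose with it. CG11893 measured 7.73 and 6.84 in discs with Delta and COX7a RNAi, against 4.25 and 4.10 under the floor in discs with Delta, a rise of at least 6.18-fold (adjusted p = 0.00158). The gene CG6830 measured 8.12 and 7.42 in discs with Delta and COX7a RNAi, against 4.82 and 4.81 in discs with Delta, a rise of 2.96 ± 0.22 (adjusted p = 0.000341). These 3 were the called members among 21 tested, and the median of the family was 0.14. Under the hairpin alone JhI-26 and CG6830 rose by 3.89 and 3.21, and CG11893 rose at least 4.79-fold over GFP arrays under the floor. A pair of genes of no stated role completed the largest rises. CG15784 measured 11.49 and 11.06 in discs with Delta and COX7a RNAi, against 9.47 and 9.46 in discs with Delta (rise of 1.82 ± 0.18, adjusted p = 0.00148). The gene nebu measured 8.31 and 7.88 in discs with Delta and COX7a RNAi, against 6.75 and 5.84 in discs with Delta (rise of 1.79 ± 0.33, adjusted p = 0.0243). Its call was lost without Delta replicate 2, replicate 1 of Delta with COX7a RNAi or either Notch[intra2] array (up to 0.113).

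**Figure D1:**
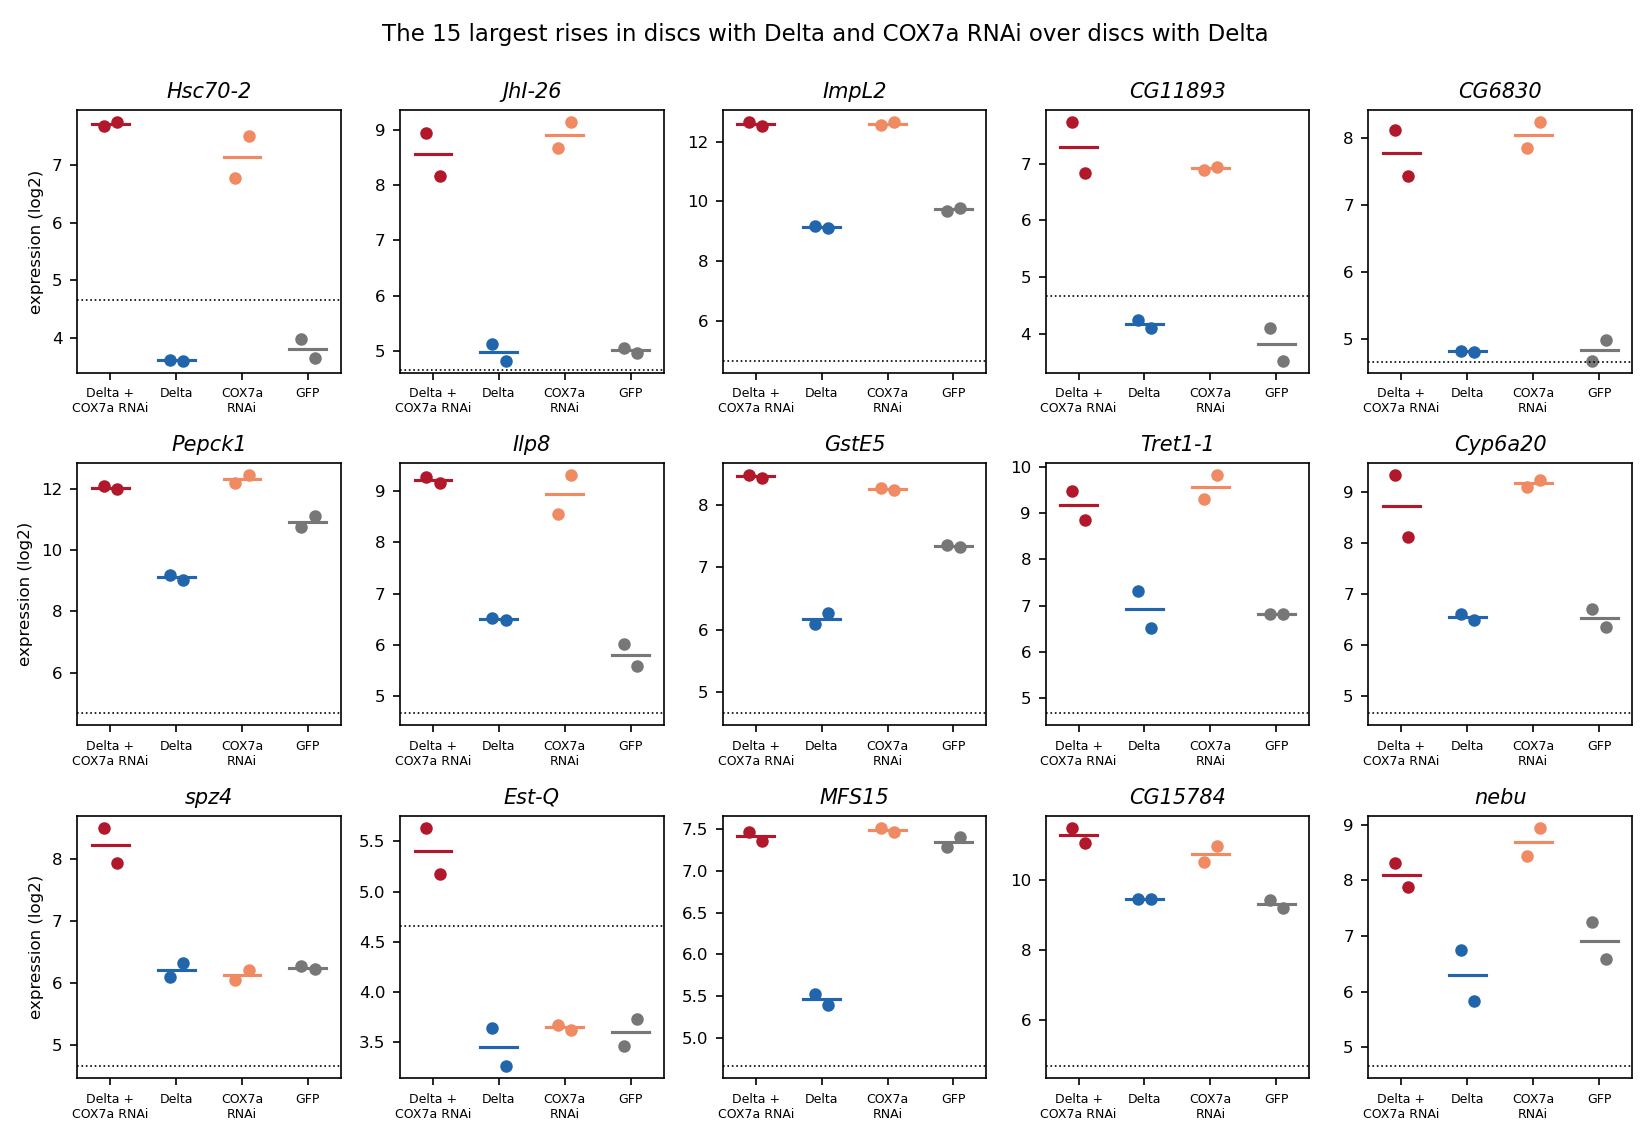
Expression (log2, vertical axis, a different range in each panel) of the 15 genes with the largest rises among called genes, on the 2 arrays of each of 4 genotypes. Points are arrays, bars are means of 2 arrays and the dotted line is the floor of 4.66. Most genes are also high with COX7a RNAi alone, while spz4 and Est-Q are high only with Delta and COX7a RNAi, and MFS15 is low only in Delta discs.

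Enzymes and carriers of sugar and amino acid metabolism formed the next group. Pepck1 encodes phosphoenolpyruvate carboxykinase, which makes phosphoenolpyruvate from oxaloacetate at the start of gluconeogenesis. It measured 12.11 and 11.997 in discs with Delta and COX7a RNAi, against 9.20 and 9.04 in discs with Delta, a rise of 2.94 ± 0.13, or 7.65-fold (adjusted p = 2.12e-05). It was at 12.22 and 12.46 with the hairpin alone, and with GFP at 10.76 and 11.11, so discs with Delta had the lowest level of the 4 genotypes and both hairpin genotypes a like, high one. The rise was 1.53 ± 0.19 larger in the presence of Delta (adjusted p = 0.013). That difference missed the threshold without Delta replicate 2 or without replicate 1 of Delta with COX7a RNAi, with an adjusted p of up to 0.0565. Among 9 genes of gluconeogenesis, trehalose and glycogen tested, 3 rose and none fell, with a median of 0.56, and without Delta replicate 1 or replicate 1 of Delta with COX7a RNAi the count was 1. UGP, which makes UDP-glucose, rose by 0.97 ± 0.17 (adjusted p = 0.0185) and Pepck2 by 0.86 ± 0.16 (adjusted p = 0.0245). For UGP the Delta arrays were the low ones, at 4.23, under the floor, and 4.78, against 5.50 and 5.44 with Delta and COX7a RNAi. It was at 5.52 and 5.57 with the hairpin alone and at 5.32 and 5.33 with GFP, a difference of 0.22 (adjusted p = 0.583). UGP lost its call without Delta replicate 1 or either array of Delta with COX7a RNAi (adjusted p up to 0.0773). Pepck2 lost it without Delta replicate 1, replicate 1 of Delta with COX7a RNAi or either Notch[intra2] array (up to 0.155).

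All 11 glycolytic genes tested had a positive difference, where 4019 of the 8702 genes tested did, and their median was 0.28. Without Delta replicate 2 the number was 9, and without replicate 2 of Delta with COX7a RNAi it was 10. Of them 2 passed the test. Pfk, the phosphofructokinase that commits sugar to glycolysis, measured 10.50 and 10.27 in discs with Delta and COX7a RNAi, against 9.60 and 9.34 in discs with Delta. The arrays did not overlap, and the rise was 0.92 ± 0.17 (adjusted p = 0.0278). Eno, the enolase, rose by 0.25 ± 0.05 (adjusted p = 0.0323). Both calls were narrow: Pfk missed the threshold without any 1 of the GFP, Delta, Delta with COX7a RNAi or Notch[intra2] arrays (adjusted p up to 0.155), and Eno without any of the same arrays apart from replicate 2 of Delta with COX7a RNAi (up to 0.177). Under the hairpin alone 4 of the 11 rose, with Pfk at 1.17. None of the 19 genes of pyruvate entry and the citric acid cycle was called, and their median was 0.04. The malic enzyme Men had the largest difference among them, 0.68 ± 0.26 (adjusted p = 0.228).

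Transporters were called in 5 of 26 cases, all higher, with a list median of 0.03. Tret1-1, which carries the blood sugar trehalose into cells, measured 9.49 and 8.86 in discs with Delta and COX7a RNAi, against 7.31 and 6.52 in discs with Delta, a rise of 2.26 ± 0.29 (adjusted p = 0.0045). The amino acid transporter path measured 11.85 and 11.86 in discs with Delta and COX7a RNAi, against 10.31 and 10.11 in discs with Delta, a rise of 1.65 ± 0.12 (adjusted p = 0.000323). For path the Delta arrays were above the GFP arrays, at 9.20 and 9.58, and the arrays with the hairpin alone were the highest, at 12.28 and 12.46. The rise of path was 1.34 ± 0.17 smaller in the presence of Delta (adjusted p = 0.016), a call that was lost without Delta replicate 1 or without either array of Delta with COX7a RNAi (up to 0.069). The amino acid transporter mnd rose by 1.32 ± 0.09 (adjusted p = 0.000196) and JhI-21, a leucine transporter, by 1.00 ± 0.08 (adjusted p = 0.000341). Their rises under the hairpin alone were 1.34 and 0.97. The remaining gene, CG5535, named after its values were seen, rose by 0.69 ± 0.11 (adjusted p = 0.0122).

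Detoxification enzymes rose in part. Of 34 glutathione S-transferase genes tested, whose products attach glutathione to reactive compounds, 6 rose and none fell, and their median was 0.11. GstE5 measured 8.48 and 8.43 in discs with Delta and COX7a RNAi, against 6.09 and 6.27 in discs with Delta, a rise of 2.27 ± 0.08, or 4.84-fold (adjusted p = 7.48e-06). It was at 8.27 and 8.23 with the hairpin alone and at 7.36 and 7.32 with GFP, and its rise was 1.36 ± 0.12 larger in the presence of Delta (adjusted p = 0.0032). The neighbouring family member GstE6 measured 11.02 and 10.76 in discs with Delta and COX7a RNAi, against 9.05 and 9.29 in discs with Delta, a rise of 1.72 ± 0.10 (adjusted p = 9.63e-05). GstE7 rose by 1.02 ± 0.11 (adjusted p = 0.00157) and GstE3 by 0.97 ± 0.17 (adjusted p = 0.0186). Among these 4, the call of GstE3 was lost without 1 array, namely either Delta array or replicate 1 of Delta with COX7a RNAi (up to 0.108). The sequences of these family members resemble each other, and how their probes separate them was not examined. Of 48 cytochrome P450 genes tested 4 rose and none fell, with a median of 0.04. None was called without either Delta array, 1 without replicate 1 of Delta with COX7a RNAi or either Notch[intra2] array, and 2 without either GFP array. Cyp6a20 had the largest rise, at 9.33 and 8.12 in discs with Delta and COX7a RNAi against 6.61 and 6.49 in discs with Delta. Its rise of 2.17 ± 0.32 (adjusted p = 0.00979) was lost without either Delta array (up to 0.069). Cyp4p1, Cyp6d4 and Cyp4e2 rose by 0.81, 0.73 and 0.71, with adjusted p between 0.0434 and 0.0484, and each lost its call without any 1 of several arrays, both Delta arrays among them (up to 0.247).

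Genes that charge tRNAs were examined by compartment. Of the 18 cytosolic aminoacyl-tRNA synthetases, which load amino acids on tRNAs for translation in the cytosol, 11 rose and none fell, and their median was 0.34 where that of all genes was -0.01. The count was 6 without Delta replicate 2 and 7 without replicate 1 of Delta with COX7a RNAi, with medians of 0.34 and 0.26. AsnRS measured 11.65 and 11.47 in discs with Delta and COX7a RNAi, against 10.99 and 10.94 in discs with Delta, a rise of 0.59 ± 0.06, or 1.51-fold (adjusted p = 0.00157). ValRS rose by 0.54 ± 0.06 (adjusted p = 0.00177), LeuRS by 0.49 ± 0.08 (adjusted p = 0.0128) and HisRS by 0.42 ± 0.06 (adjusted p = 0.00767). LeuRS lost its call without Delta replicate 2 or replicate 1 of Delta with COX7a RNAi (up to 0.093) and HisRS without Delta replicate 2 (0.0647). The other 14 lay between -0.01 and 0.38. Under the hairpin alone 11 of the 18 rose too, with a median of 0.32. None of the 14 mitochondrial synthetases was called in discs with Delta and COX7a RNAi, and their median was 0.01, with GluRS-m the highest at 0.31 ± 0.08 (adjusted p = 0.0888). Of the 38 cytosolic ribosomal protein genes tested none was called, and their median was 0.00.

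The cytosolic synthetases are known in other systems as targets of the transcription factor ATF4, called crc in flies. The list of that pathway also held genes that make serine, asparagine and one-carbon units, and of its 16 genes 3 rose and none fell, with a median of 0.13. No gene of the list was called without Delta replicate 2 or replicate 1 of Delta with COX7a RNAi, 1 was without Delta replicate 1, and 5 were without either array of the hairpin alone. Gadd45, a stress-response gene that is also in the JNK list, measured 7.98 and 7.20 in discs with Delta and COX7a RNAi, against 5.82 and 6.25 in discs with Delta, a rise of 1.55 ± 0.32 (adjusted p = 0.0371). AsnS, which makes asparagine, measured 7.67 and 7.42 in discs with Delta and COX7a RNAi, against 6.55 and 6.52 in discs with Delta, a rise of 1.01 ± 0.18 (adjusted p = 0.0232). Nmdmc, a mitochondrial enzyme of folate metabolism, rose by 0.47 ± 0.08 (adjusted p = 0.015). The arrays of the 2 groups did not overlap for any of the 3, yet each call was lost on leaving out 1 array: Gadd45 without either GFP, Delta or Notch[intra2] array or replicate 1 of Delta with COX7a RNAi (up to 0.219), AsnS without either Delta array or replicate 1 of Delta with COX7a RNAi (up to 0.122), and Nmdmc without Delta replicate 2 or either array of Delta with COX7a RNAi (up to 0.0962). The transcript of crc itself differed by 0.32 and was not called (adjusted p = 0.0693). It was named after its value was seen.

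Mitochondrial chaperones and proteases, which fold and degrade proteins inside the organelle, were the list with the next highest share of calls: 8 of 16 genes tested rose, none fell, and the median was 0.27. Roe1, the fly counterpart of the GrpE exchange factor of mitochondrial Hsp70, measured 9.71 on both arrays of Delta with COX7a RNAi, against 8.999 and 8.96 in discs with Delta, a rise of 0.73 ± 0.08, or 1.66-fold (adjusted p = 0.00208). Afg3l2, a protease of the inner membrane, rose by 0.62 ± 0.08 (adjusted p = 0.00583), which missed the threshold without Delta replicate 2 (0.0517). The prohibitin Phb2, a scaffold of the inner membrane, measured 13.55 and 13.54 in discs with Delta and COX7a RNAi, against 13.21 and 13.19 in discs with Delta, a small rise of 0.35 ± 0.03 between tight groups (adjusted p = 0.000802). Chchd2, a protein of the intermembrane space, rose by 0.38 ± 0.07 (adjusted p = 0.0234) and lost its call without Delta replicate 1 or replicate 1 of Delta with COX7a RNAi (up to 0.158). The count of 8 was 5 without either GFP or Notch[intra2] array, 3 and 4 without Delta replicate 1 or 2, and 4 without replicate 1 of Delta with COX7a RNAi, with medians between 0.21 and 0.29. The hairpin alone also raised 8 of the 16.

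In the respiratory chain the only call was the target itself. Besides COX7A, none of the other complex IV genes was called, and over the 14 genes tested the median was -0.01. None of 30 complex I genes, 11 complex II, complex III and cytochrome c genes, or 14 ATP synthase genes was called, with medians of 0.01, 0.00 and 0.01. The largest differences in these lists were 0.15 for ND-75 (adjusted p = 0.447), -0.16 for Cyt-c1L (adjusted p = 0.425) and -0.30 for ATPsynepsilonL (adjusted p = 0.118). Of 71 mitochondrial ribosomal protein genes 1 rose: mRpL28 measured 11.54 and 11.53 in discs with Delta and COX7a RNAi, against 11.14 and 11.12 in discs with Delta (rise of 0.41 ± 0.04, adjusted p = 0.00104). The median of that list was 0.03. In the ribosome biogenesis list, with a median of 0.08, 1 of 21 genes rose. It was bor, whose product belongs to the ATAD3 family of mitochondrial membrane ATPases, with a rise of 0.77 ± 0.09 (adjusted p = 0.00228).

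**Figure D2:**
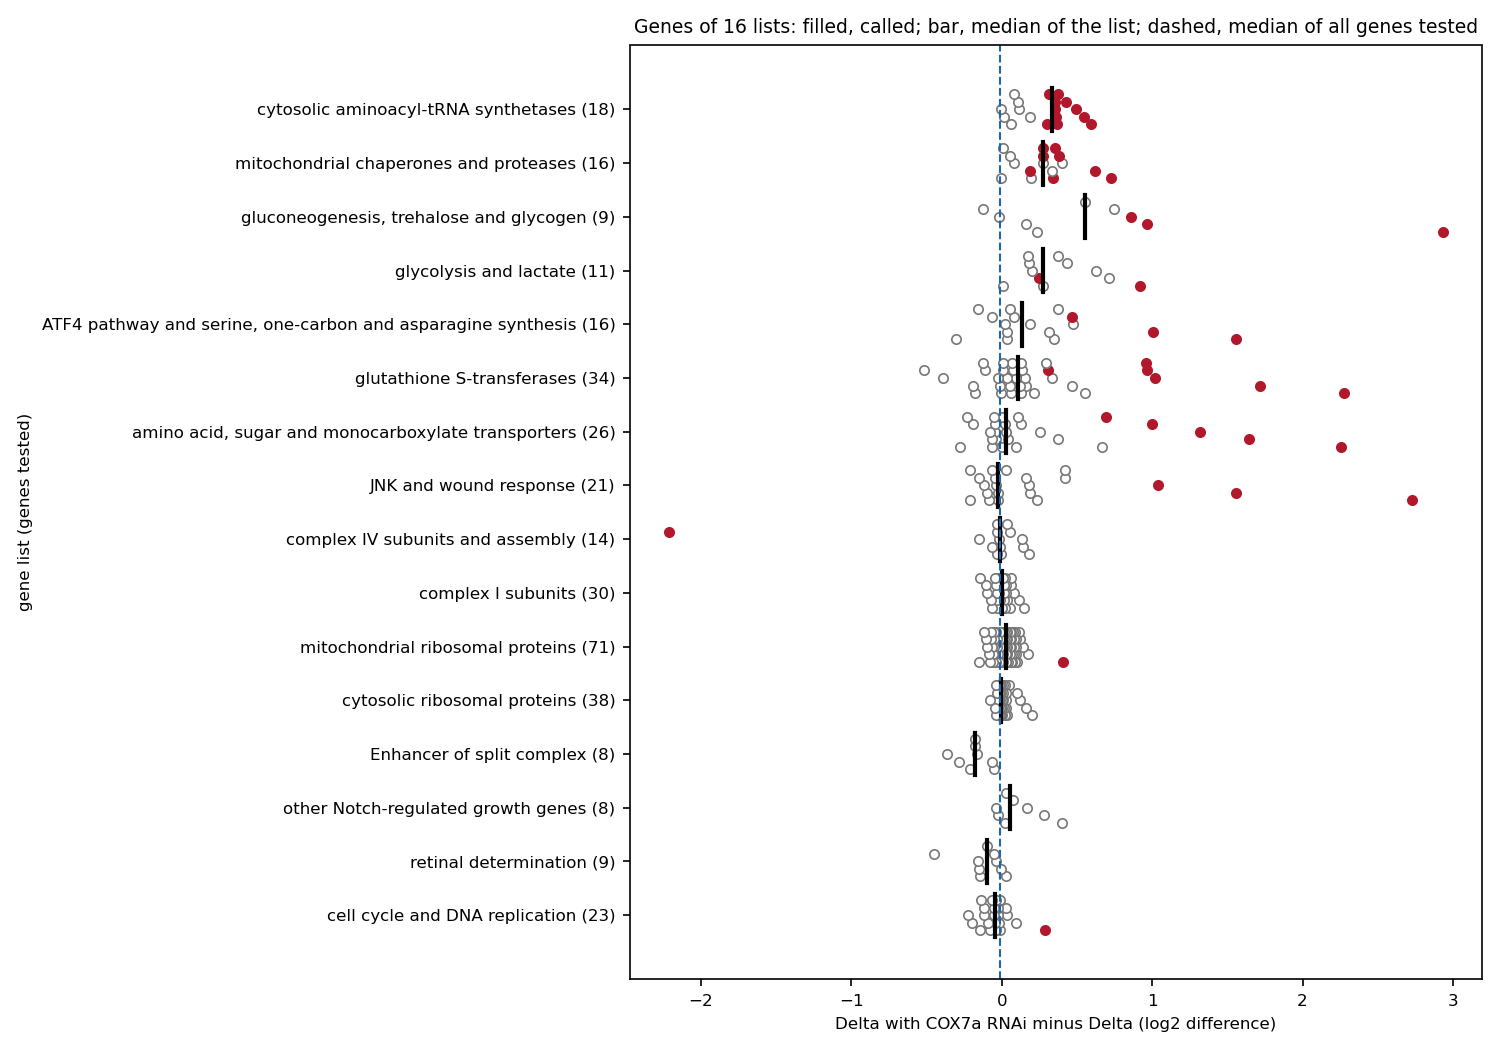
Difference between discs with Delta and COX7a RNAi and discs with Delta (log2, horizontal axis) for the genes tested in 16 lists, 1 point per gene, with the number tested in brackets. Filled points passed an adjusted p of 0.05, the black bar is the median of the list and the dashed line the median of all 8702 genes, -0.01. Called synthetases and mitochondrial chaperones all lie to the right, while the respiratory complexes and ribosomal proteins lie around 0.

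Stress and wound genes moved singly. Of 21 genes of the JNK and wound response list 3 rose, none fell, and the median was -0.03. Without either Delta array 1 rose, and without either array of the hairpin alone 5 did. They were Ilp8 and Gadd45, given above, and scaf, a JNK-responsive gene for a secreted serine protease homologue, which measured 9.91 and 9.37 in discs with Delta and COX7a RNAi, against 8.72 and 8.49 in discs with Delta (rise of 1.04 ± 0.16, adjusted p = 0.0128). It lost its call without either Delta array (up to 0.0939). Of 8 apoptosis, p53 and cell competition genes tested none was called, with Irbp18 at 0.47 ± 0.14 (adjusted p = 0.117), and none of 14 endoplasmic reticulum chaperone genes was called, with Sil1 at 0.38 ± 0.10 (adjusted p = 0.0831). Of 19 antioxidant and Nrf2 pathway genes 2 rose, with a list median of 0.02. The autophagy receptor ref(2)P rose by 0.46 ± 0.09 (adjusted p = 0.0393), lost without either GFP, Delta or Notch[intra2] array or replicate 1 of Delta with COX7a RNAi (up to 0.188). Sod3, the secreted superoxide dismutase, rose by 0.36 ± 0.06 (adjusted p = 0.0124). Its call was lost without either Delta array or replicate 2 of Delta with COX7a RNAi (up to 0.093). Sod3 measured 11.73 and 11.75 in discs with Delta and COX7a RNAi, against 11.41 and 11.35 in discs with Delta. It was at 11.76 and 11.94 with the hairpin alone and at 11.93 and 11.91 with GFP, a difference of -0.07 (adjusted p = 0.60). Discs with Delta were thus the low ones among these genotypes. Another probe set of Sod3 differed by 0.08 (adjusted p = 0.635).

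In the hypoxia list 2 of 9 genes tested rose, with a median of 0.03. The FGF ligand bnl, which attracts tracheal branches, measured 7.80 and 7.59 in discs with Delta and COX7a RNAi, against 6.71 and 6.83 in discs with Delta, a rise of 0.92 ± 0.13 (adjusted p = 0.00687). Discs with Delta were the lowest of the 4 genotypes, since bnl was at 8.64 and 8.92 with the hairpin alone and at 8.63 and 8.64 with GFP. The call was lost without Delta replicate 1 (0.0604), and the other probe sets of bnl differed by 0.13 (adjusted p = 0.536) and 0.29 (adjusted p = 0.359). Hph, the prolyl hydroxylase that senses oxygen, rose by 0.34 ± 0.07 (adjusted p = 0.0428), which was lost without any 1 of the GFP, Delta, Delta with COX7a RNAi or Notch[intra2] arrays (up to 0.187). Its other probe set differed by 0.24 (adjusted p = 0.103). The tracheal marker sum was lower in discs with Delta and COX7a RNAi, as given above. None of the 5 tracheal genes was called there, and verm had the largest difference (-0.44 ± 0.12, adjusted p = 0.0941). Under the hairpin alone the sum was 13123 and 12474, against 16667 and 16037 with GFP. In that comparison Gasp (-0.31) and serp (-0.44) were called lower.

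Of 18 ecdysone response genes tested 3 rose and none fell, with a median of 0.04. They were ImpL2, the ecdysone-inducible gene ImpE1 (0.68 ± 0.13, adjusted p = 0.0289) and Hr39, a nuclear receptor (0.57 ± 0.08, adjusted p = 0.00767). ImpE1 lost its call without either GFP, Delta or Notch[intra2] array (up to 0.171), and a further ImpE1 probe set differed by 0.36 (adjusted p = 0.341). For Hr39 the probe sets disagreed. The brightest measured 11.25 and 11.12 in discs with Delta and COX7a RNAi, against 10.64 and 10.60 in discs with Delta, and lost its call without either Delta array (up to 0.0594). The next rose by 0.58 (adjusted p = 0.0131) and another differed by -0.14 (adjusted p = 0.753). The dimmest of the 4 measured 4.45 and 4.03 in discs with Delta and COX7a RNAi, under the floor, against 6.52 and 6.84 in discs with Delta, a fall of at least 4.06-fold (adjusted p = 0.000349). This dimmest probe set was at 3.61 and 3.51 with the hairpin alone and at 3.59 and 3.50 with GFP, so discs with Delta stood apart. The direction of Hr39 therefore depends on the probe set.

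Several of the largest falls were in genes that were high in discs with Delta and low with the hairpin alone and with GFP. The neuropeptide precursor sNPF measured 4.30 and 4.75 in discs with Delta and COX7a RNAi, against 7.84 and 8.43 in discs with Delta. It fell by 3.61 ± 0.26, or 12.2-fold (adjusted p = 0.000301). With the hairpin alone it was at 4.32 and 4.01 and with GFP at 4.49 and 3.91, under the floor on all 4 arrays, and replicate 1 of Delta with COX7a RNAi was under it too. AstC, the precursor of the neuropeptide allatostatin C, measured 4.45 and 4.09 under the floor in discs with Delta and COX7a RNAi, against 6.94 and 6.60 in discs with Delta. It fell at least 4.33-fold (adjusted p = 0.000291), and with the hairpin alone (4.37 and 3.95) and GFP (3.99 and 4.16) it was under the floor as well. These were the 2 genes that fell among 19 neuropeptide and hormone genes tested, none rose, and the median was -0.02. Neuron marker sums were 1026 and 1153 in discs with Delta and COX7a RNAi, against 1047 and 1156 in discs with Delta, and the neuronal gene brp differed by -0.09 (adjusted p = 0.777).

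Spn28B, a serpin, measured 3.58 and 3.81 under the floor in discs with Delta and COX7a RNAi, against 5.93 and 6.58 in discs with Delta, a fall of at least 3.03-fold (adjusted p = 0.00127). It was between 3.68 and 3.86 on the 4 arrays with the hairpin alone or GFP. CtsL2, a cathepsin L-like protease by its name, measured 5.19 and 5.38 in discs with Delta and COX7a RNAi, against 7.70 and 7.90 in discs with Delta, and fell by 2.52 ± 0.17 (adjusted p = 0.000196). Under the hairpin alone CtsL2 was at 5.76 and 5.27, above the 4.62 and 4.84 with GFP. The piRNA pathway gene tej measured 5.26 and 5.23 in discs with Delta and COX7a RNAi, against 7.12 and 7.38 in discs with Delta, and fell by 2.00 ± 0.14 (adjusted p = 0.000291), to the range of the 4 arrays with the hairpin alone or GFP, 5.02 to 5.46. Discs with Notch[intra2] were also high for CtsL2 (7.40 and 7.47) and tej (6.65 and 6.63), but not for sNPF, AstC, Syngr or CG7231, whose highest value there was 6.03. CG4577 measured 4.85 and 4.495 in discs with Delta and COX7a RNAi, against 6.12 and 6.99 in discs with Delta, with 4.83 and 4.42 for the hairpin alone and 5.05 and 4.05 for GFP. Its fall of 1.88 ± 0.39 (adjusted p = 0.0382) was lost without any 1 of the arrays of Delta, Delta with COX7a RNAi or Notch[intra2] (up to 0.188). Syngr, a synaptic vesicle protein, measured 6.44 and 5.90 in discs with Delta and COX7a RNAi, against 7.35 and 7.33 in discs with Delta. It fell by 1.17 ± 0.16 (adjusted p = 0.00551), narrowly lost without Delta replicate 1 (0.0503). CG7231 measured 5.92 and 5.98 in discs with Delta and COX7a RNAi, against 7.21 and 6.97 in discs with Delta, and fell by 1.14 ± 0.10 (adjusted p = 0.00093). The gustatory receptor gene Gr28b, under the floor in discs with Delta and COX7a RNAi, fell at least 1.28-fold (adjusted p = 0.00463), and the ABC transporter gene Mrp5 fell by 1.10 ± 0.11 (adjusted p = 0.0015). The comparison of Delta with GFP uses the same Delta arrays, so its values stand beside these without counting as separate evidence: CtsL2 and tej were higher in discs with Delta than with GFP by 3.07 and 1.81 on the log2 scale. For sNPF, AstC and Spn28B, where both GFP arrays were under the floor, Delta discs were at least 11.1-fold, 4.33-fold and 3.03-fold higher.

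CG4250, CG43693 and Cpr49Ac, also among the largest falls, were laid out differently. CG4250 measured 6.05 and 6.32 in discs with Delta and COX7a RNAi, against 8.33 and 8.52 in discs with Delta, and fell by 2.24 ± 0.26 (adjusted p = 0.0024). It was at 6.89 and 7.66 with the hairpin alone and at 8.90 and 9.14 with GFP, a fall of 1.74. Similarly CG43693 fell by 1.12 ± 0.19 in discs with Delta and COX7a RNAi (adjusted p = 0.0173) and by 1.13 with the hairpin alone. Its call was lost without replicate 1 of either group (up to 0.103). The cuticle protein gene Cpr49Ac measured 8.22 and 7.98 in discs with Delta and COX7a RNAi, against 9.34 and 9.55 in discs with Delta, and fell by 1.34 ± 0.15 (adjusted p = 0.00216). Cpr49Ac was at 8.62 and 8.96 under the hairpin alone, and with GFP at 8.97 and 8.76. Among these genotypes discs with Delta and COX7a RNAi were thus the lowest and discs with Delta the highest. Of 69 cuticle protein genes tested 2 fell, Cpr49Ac and Lcp65Af (-0.62 ± 0.08, adjusted p = 0.00616, lost without Delta replicate 1 at 0.0556). The median of that list was 0.00. CG14968 fell by 1.01 ± 0.10 (adjusted p = 0.0014).

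**Figure D3:**
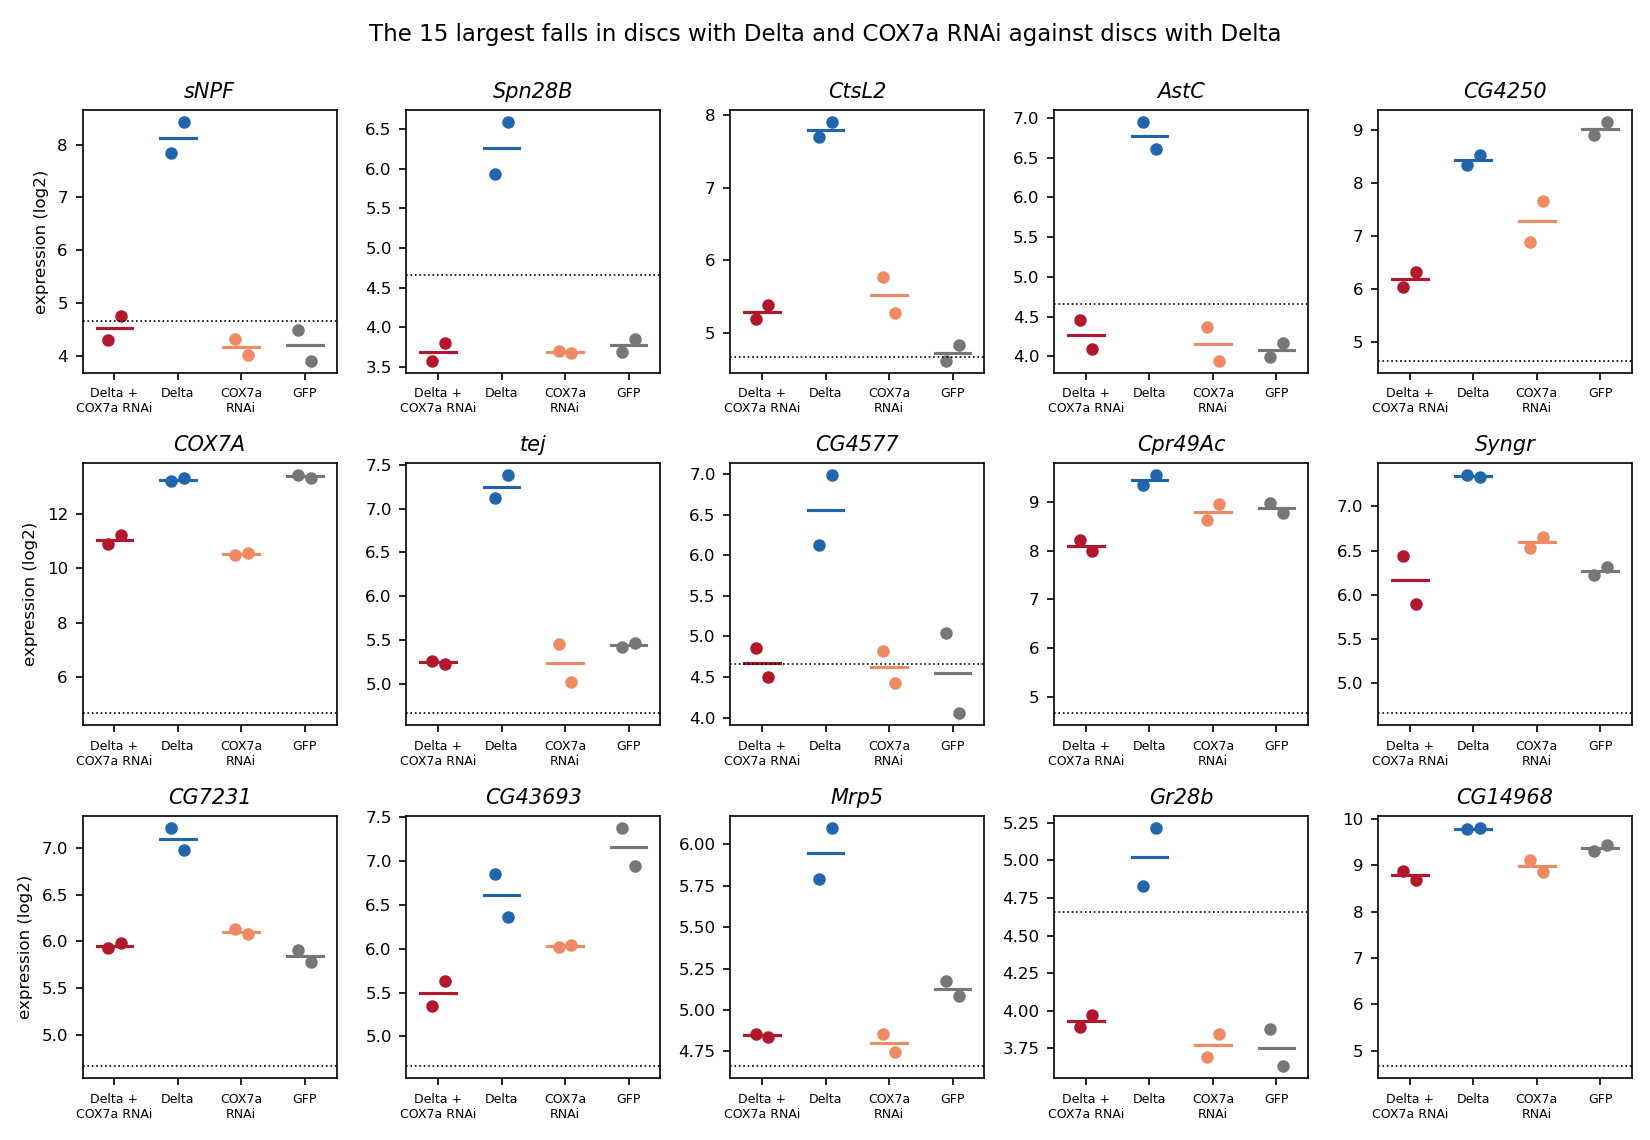
Expression (log2, vertical axis, a different range in each panel) of the 15 genes with the largest falls among called genes, on the 2 arrays of each of 4 genotypes. Points are arrays, bars are means of 2 arrays and the dotted line is the floor of 4.66. In sNPF, Spn28B, AstC, tej and CG7231 the Delta arrays stand above those of all other genotypes shown, and COX7A is low on the 4 arrays with the hairpin.

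Readouts of Notch activity were examined because both groups overexpressed its ligand. None of the 8 Enhancer of split genes tested was called, all 8 had negative differences, and the median was -0.18 where that of all genes was -0.01. The sign rested on replicate 1 of Delta with COX7a RNAi: without it 6 of the 8 differences were positive and the median was 0.09. The largest, E(spl)m7-HLH, measured 9.10 and 9.91 in discs with Delta and COX7a RNAi, against 9.84 and 9.89 in discs with Delta, so the groups overlapped (-0.36 ± 0.29, adjusted p = 0.605). Its difference was 0.05 without replicate 1 of Delta with COX7a RNAi. Of 8 other Notch-regulated growth genes tested none was called and the median was 0.05. In that list eyg, a growth regulator of the eye disc named after its values were seen, measured 9.94 and 9.92 in discs with Delta and COX7a RNAi, against 9.89 and 9.90 in discs with Delta, while it was at 9.07 and 8.88 with the hairpin alone and at 9.02 and 8.87 with GFP. Its 4 arrays with Delta lay above its 4 arrays without. The transcription factor klu had the largest difference of that list, 0.40 ± 0.18 (adjusted p = 0.293). None of 19 Notch ligands and pathway components was called, with a median of -0.06, and bib was the highest at 0.21 ± 0.16 (adjusted p = 0.577).

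Identity, patterning and growth lists held few calls. None of the retinal determination genes (9 tested, median -0.10), antennal identity and head patterning genes (17, median 0.18), furrow and photoreceptor genes (17, median -0.02) or dorsoventral selectors and disc morphogens (10, median -0.02) was called. The widest differences were those of tio, given above, salm (0.58 ± 0.72, adjusted p = 0.761), sev (0.41 ± 0.19, adjusted p = 0.336) and pnr (0.28 ± 0.16, adjusted p = 0.431). Some furrow and photoreceptor genes differed between the replicates of Delta with COX7a RNAi: gl (9.15 and 10.38), lz (5.79 and 7.53), sens (7.15 and 8.07) and ato (9.54 and 10.37). Both Delta arrays lay between these values. Others, such as da (11.32 and 11.34), had close replicates. With the hairpin alone gl was at 8.56 and 10.41. The standard errors for gl and lz were 0.57 and 0.81, so their lack of a call cannot exclude a change. None of 9 JAK/STAT, 17 Fat and Hippo or 31 proteasome genes was called, nor was any of 15 genes of mitochondrial carriers and the retrograde response. Stat92E, ds and ewg differed by -0.17 (adjusted p = 0.175), -0.30 (adjusted p = 0.142) and -0.37 (adjusted p = 0.0574). Of 23 cell cycle and DNA replication genes 1 rose: Cdk4, the partner of cyclin D, measured 10.45 and 10.51 in discs with Delta and COX7a RNAi, against 10.22 and 10.17 in discs with Delta (rise of 0.29 ± 0.04, adjusted p = 0.0108, lost without either Delta array at up to 0.0881). The median of that list was -0.04. Among the cell type markers 2 genes were called. The glial gene nrv2 fell by 0.30 ± 0.06 (adjusted p = 0.0277), lost without either GFP, Delta or Notch[intra2] array or replicate 2 of Delta with COX7a RNAi (up to 0.153). The salivary gland transcription factor gene sage rose by 0.77 ± 0.12 (adjusted p = 0.0121), lost without either Delta array or replicate 1 of Delta with COX7a RNAi (up to 0.0887), while 3 of the 7 salivary gland markers were under the floor on all 10 arrays.

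Whether the effect of the hairpin differed in the presence of Delta was tested directly as the difference between the 2 knockdown effects. It was called for 50 of 8702 genes, 0.575%, with 23 positive and 27 negative. The count was 16 and 27 without GFP replicate 1 or 2, 24 and 32 without Delta replicate 1 or 2, and 32 without replicate 1 of Delta with COX7a RNAi. Among the genes changed by the hairpin in Delta discs, 15 of the 190 that rose and 12 of the 136 that fell were called for this difference. A gene can be called in several ways, so each was described by the genotype whose mean stood farther from the nearest other mean than the other 3 spanned, a rule set after the values were seen. Discs with Delta stood apart for 18 of the 50 genes, discs with GFP for 18, discs with Delta and COX7a RNAi for 5 and discs with the hairpin alone for 5. Over all genes tested these shares were 13.24%, 14.03%, 13.25% and 10.998%, and 48.5% had no genotype apart. The 50 genes were selected by a difference between the same 4 means, which favours a genotype apart. The shares over all genes are therefore no baseline for them. The genes for which discs with Delta stood apart include CtsL2, tej, Syngr and CG7231. Their differences between the 2 effects were -3.31, -1.80, -1.49 and -1.41. They also include sNPF, AstC and Spn28B, which were called with negative differences whose size is not measured. Both arrays of 2 of the 4 genotypes (sNPF) or of 3 (AstC and Spn28B) were under the floor. Only genes above the floor on at least 2 arrays were tested. For AstC and Spn28B the layout with discs with Delta apart was thus partly set by the filter. With 1 array left out, AstC, sNPF, CtsL2 and CG7231 stayed called. By contrast tej lost this call without GFP replicate 1 (0.0586), and Spn28B and Syngr without any 1 of several arrays, both GFP arrays among them (up to 0.12 and 0.145).

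Discs with Delta also stood apart below the others. MFS15, a transporter of the major facilitator superfamily, measured 7.47 and 7.36 in discs with Delta and COX7a RNAi, against 5.53 and 5.39 in discs with Delta. With the hairpin alone it was at 7.51 and 7.46, and with GFP at 7.29 and 7.40, so the Delta arrays were the low ones among these genotypes. The rise of 1.95 ± 0.08 with Delta (adjusted p = 1.74e-05) stood beside 0.14 without, a difference of 1.81 ± 0.12 (adjusted p = 0.0011). CG6701 measured 8.12 and 7.62 in discs with Delta and COX7a RNAi, against 6.06 and 6.16 in discs with Delta, a rise of 1.76 ± 0.14 (adjusted p = 0.000475). Under the hairpin alone CG6701 was at 8.02 and 7.96, below the 9.42 and 9.48 with GFP, so the hairpin moved it in opposite directions. The 2 effects differed by 3.22 ± 0.20 (adjusted p = 0.0011).

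Discs with Delta and COX7a RNAi stood apart for spz4 and Est-Q among the named genes. The gene spz4 belongs to the spätzle family, whose founding member is the ligand of the receptor Toll. It measured 8.50 and 7.94 in discs with Delta and COX7a RNAi, against 6.11 and 6.32 in discs with Delta, with 6.05 and 6.21 for the hairpin alone and 6.27 and 6.23 for GFP. The 6 arrays of the other 3 genotypes lay within 0.3 of each other, and spz4 rose by 2.01 ± 0.17 with Delta (adjusted p = 0.000651) and differed by -0.12 without. The difference between these effects, 2.13 ± 0.24 (adjusted p = 0.0087), was lost without GFP replicate 1 (0.0578). Est-Q, an esterase gene, measured 5.63 and 5.18 in discs with Delta and COX7a RNAi, against 3.64 and 3.26 under the floor in discs with Delta, a rise of at least 1.68-fold (adjusted p = 0.00107). It was under the floor with the hairpin alone (3.67 and 3.62) and with GFP (3.46 and 3.73) too. With 3 of the 4 genotypes under the floor, the size of its difference between the effects is not measured. Only genes above the floor on at least 2 arrays were tested, so the layout of Est-Q was partly set by the filter. The call of that difference (adjusted p = 0.02) was lost without any 1 of several arrays, both GFP and both hairpin arrays among them (up to 0.0951).

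For Akh, Rnf11, CG32373 and ImpE2 the effect of the hairpin in Delta discs was not called, and the difference between the effects was. The adipokinetic hormone gene Akh measured 5.46 and 5.56 in discs with Delta and COX7a RNAi, against 5.77 and 5.50 in discs with Delta. With the hairpin alone it was at 8.66 and 8.01, against 5.79 and 5.52 with GFP, so the hairpin arrays without Delta stood above the others of these 4 genotypes. Discs with Notch[intra2] were higher still, at 9.86 and 8.94. Akh is also a marker of the ring gland, a neighbouring endocrine organ. The 5 ring gland markers summed to 853 and 698 with the hairpin alone, against 327 and 536 with GFP, but this sum includes Akh itself. The other markers dib, sad, nvd and sro differed by 0.28, 0.79, 0.54 and -0.30 under the hairpin alone, and none of them was called. The part of ring gland tissue in the Akh call was not tested. The difference of -2.81 ± 0.42 (adjusted p = 0.031) was lost without any 1 of the arrays of these 4 genotypes apart from COX7a RNAi replicate 2 (up to 0.132). For Rnf11, a RING finger gene, discs with GFP stood apart: it measured 6.79 and 6.11 in discs with Delta and COX7a RNAi, against 5.70 and 5.56 in discs with Delta, and 5.34 and 6.23 with the hairpin alone, against 12.07 and 12.16 with GFP. In its second probe set the GFP arrays, at 10.18 and 9.83, also stood above the 6 arrays of the other 3 genotypes, which lay between 4.69 and 5.79. CG32373 and ImpE2 had the same layout with GFP apart, and their main differences were 0.02 each (adjusted p = 0.979 and 0.981), beside 2.19 and -1.90 for the hairpin alone. The difference between the effects for ImpE2 was lost without any 1 of several arrays, both GFP and both Delta arrays among them (up to 0.188). For Rnf11, CG32373 and ImpE2 the GFP arrays lay apart from the other 3 genotypes. Delta against GFP (-6.48, 2.43 and -1.54) went in the same direction as the hairpin alone against GFP. Discs with Notch[intra2] lay below the GFP arrays as well for ImpE2 (5.85 and 6.22) and for the other probe set of Rnf11 (4.98 and 4.94). The cause of this layout was not tested.

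**Figure D4:**
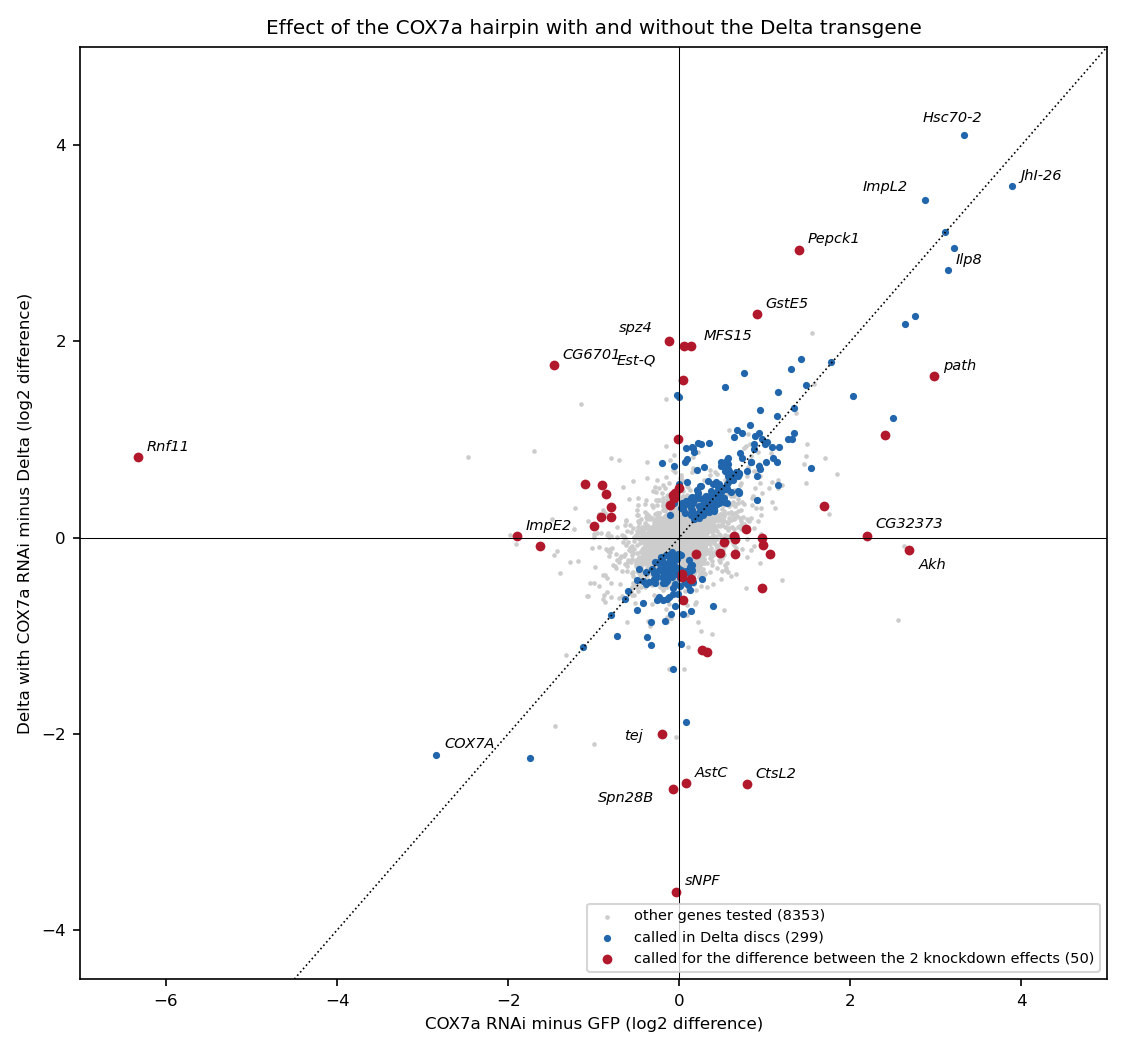
Effect of the hairpin with Delta (vertical axis, Delta with COX7a RNAi minus Delta, log2) against its effect without Delta (horizontal axis, COX7a RNAi minus GFP, log2), 1 point per gene for 8702 genes. Red points are the 50 genes called for the difference between the 2 effects, blue points are the other genes called in Delta discs, and the dotted line marks equal effects. Values under the floor are plotted as measured. JhI-26, ImpL2 and Ilp8 lie near the line, sNPF and spz4 near the vertical axis, and Rnf11 and Akh near the horizontal one.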

How the data were processed

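Expression was measured on Affymetrix arrays hybridised in 1 colour with amplified RNA, from 50 ng of total RNA, per the labels' protocols. The authors deposited log2 values, 1 per probe set and array. The submitters' processing notes name RMA, Affymetrix Expression Console and, at version 3.0.0.466, Transcriptome Analysis Console, with no role for each. The distributions of the arrays are nearly alike, so a shift common to most genes cannot be seen. Detection calls, scan dates and a genome build are not given in the sources used here, and no sequence is printed.

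Of 18952 probe sets, 183 controls were left out. By the platform annotation, 13647 had 1 gene symbol, 402 several and 4720 none. Symbols were checked by gene ID in RefSeq, where 13544 IDs were found. Each of 11982 genes was read from the probe set that was brightest on average over the 10 arrays, and 8702 genes with at least 2 arrays above the 40th percentile (4.66) were tested with limma 3.58.1 in R 4.3.3 (lmFit, eBayes with intensity trend, a mean for each genotype fitted on all 10 arrays with 5 residual degrees of freedom, two-sided, Benjamini-Hochberg over all genes, threshold 0.05). Each ± is the standard error of that fit. Where both arrays of the dimmer group were under the floor, the fold is a bound against it.

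Named genes are those targeted, up to 15 called and non-overlapping genes with the largest changes in each direction, up to 4 called genes per list (or 1 as a value) and the 10 largest differences between the knockdown effects. The members and lists were chosen with earlier results of these data known, and cyclophilins, accessory gland proteins and a misplaced ATP synthase subunit were later taken out of 3 lists by their identity. Notch and white have no probe set of their own and were not analysed here. The design text calls the 2 arrays per genotype biological replicates, and their number limits the precision. On simulated data, 21 of 50 genes changed 1.25-fold, 38 changed 1.5-fold and 47 changed 2-fold were called in the main comparison, with 13 of 8502 unchanged genes. Alternatives covered the filter, eBayes settings, arrays fitted, scaling, probe sets per gene, a fold threshold, array weights, a replicate block and leaving out each array.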

Additional observations from a re-analysis of the deposited data

Results flagged for a closer look

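The effect of the hairpin differed between discs with and without Delta, by the test of the difference itself, for the following named genes (log2 difference between the effects, positive where the effect with Delta was the higher). The differences were positive for Rnf11 (7.15), CG6701 (3.22), spz4 (2.13), ImpE2 (1.92), Est-Q (1.90), MFS15 (1.81), Pepck1 (1.53) and GstE5 (1.36). They were negative for sNPF (-3.57), CtsL2 (-3.31), Akh (-2.81), AstC (-2.58), Spn28B (-2.49), CG32373 (-2.17), tej (-1.80), Syngr (-1.49), CG7231 (-1.41) and path (-1.34). For sNPF both arrays of 2 of the 4 genotypes were under the floor, and for AstC, Spn28B and Est-Q those of 3, so the sizes given for these genes are not measured ones. For Rnf11, ImpE2 and CG32373 discs with GFP stood apart, as given above. Of the 18 calls listed here, 9 held on leaving out any 1 array.

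Probe sets without a single gene in the annotation are outside the comparisons above. In a fit of their own, 39 of 2301 (1.69%) passed the test between discs with Delta and COX7a RNAi and discs with Delta, 24 higher and 15 lower. They are left unnamed.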

How the results depend on the processing

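The 326 genes called in discs with Delta and COX7a RNAi became 118 with only the arrays of the groups compared, 217 without the Notch[intra2] arrays and 124 at 1.5-fold or more. Leaving out 1 array gave 104 to 371. The other 10 alternatives tried stayed within 1.5 times. The hairpin alone gave 187 with only the groups compared, 157 at 1.5-fold or more, and 127 to 443 on leaving out 1 array. The difference between the 2 effects was called for 16 to 42 genes on leaving out 1 array. For Delta against GFP, where 207 genes were called, the counts were 366 with only the groups compared, 116 at 1.5-fold or more and 433 with array weights, with 74 to 245 on leaving out 1 array, and centring the arrays on their median gave 99 higher and 117 lower in place of 117 and 90. A fit of fewer arrays has fewer degrees of freedom for the spread, and other causes were not tested.

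Nothing in the labels pairs the replicate numbers. The replicate differences of Delta with COX7a RNAi and Delta correlated with r = 0.068 over genes and those of the hairpin alone and GFP with -0.079, but those of Delta with COX7a RNAi and the hairpin alone with 0.376 and those of Delta and GFP with 0.124. Not every pair of genotypes deviated together, and the numbers were not treated as pairing. With a replicate block, 322 genes were called in discs with Delta and COX7a RNAi and 336, 35 and 192 for the hairpin alone, the difference between the effects and Delta against GFP.

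Of the 68 named genes called in discs with Delta and COX7a RNAi, 37 held on leaving out any 1 array. Signs turned for Hr39 (-0.36 as the mean of its probe sets) and brp (0.034 likewise). On leaving out 1 array the uncalled differences ranged from -0.26 to 0.0091 for Akh, from -0.22 to 0.25 for CG32373, from -0.42 to 0.12 for Delta, from -0.77 to 0.047 for E(spl)m7-HLH, from -0.091 to 0.13 for ImpE2, from -0.52 to 0.088 for NimC1, from -0.32 to 0.0195 for Prosbeta2R1 and from -0.22 to 0.041 for brp. The cause was not tested. With 2 arrays a group, small changes are the least certain, and levels near the floor have no order.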

Other observations

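The share of genes called in discs with Delta and COX7a RNAi ranged by chromosome arm: it was 2.00% of 1449 genes on X, 4.12% of 1554 on 2L, 5.48% of 1788 on 2R, 3.33% of 1711 on 3L and 3.45% of 2116 on 3R. On chromosome 4 it was 4 of 46 genes. The gene y (yellow), chosen after its values were seen, measured 5.77 and 5.97 in discs with Delta and COX7a RNAi, against 4.95 and 4.70 in discs with Delta, and 7.27 and 7.21 with the hairpin alone, against 4.82 and 4.86 with GFP. The difference between the 2 effects was -1.35 (adjusted p = 0.009). In 5 genes, among them CG31826 and CG9541, discs with Delta and COX7a RNAi stood apart. CG31826 measured 6.05 and 5.45 there and between 4.11 and 4.21 on the 6 arrays of Delta, the hairpin alone and GFP. CG9541 measured 5.57 and 5.41 there and between 4.40 and 4.51 on the same 6 arrays. For both genes these 6 arrays were under the floor of 4.66. Only genes above it on at least 2 arrays were tested, so this layout was partly set by the filter.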
